A study of Mus musculus with 8 samples.

Results

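The 7 hypoxia-inducible genes often tied to HIF-2, Adm, Edn1, Tgfa, Angptl4, Slc2a3, Ndrg1 and Ankrd37, were followed across 8 mouse sarcomas with and without HIF-2α. They were taken by symbol from the table of raw counts per gene, where all 7 were found among 26667 genes, and all 7 passed the filter on low counts. The tumours were undifferentiated pleomorphic sarcomas (UPS), soft tissue tumours without a recognisable line of differentiation. KP mice carried Trp53 fl/fl among their alleles, and KPH2 mice carried the same alleles plus Epas1 fl/fl, the floxed gene for HIF-2α. The mice were male and female, 8 weeks or older, on a mixed 129/C57BL/6 background, and each tumour arose where an adenovirus expressing Cre was injected into the hind limb muscle. They were killed 7 weeks after injection or at maximal tumour size, and RNA came from formalin-fixed, paraffin-embedded sections. The promoter that drives the Cre is not given in the sources used here, and host cells in a section that had not taken up the virus kept Epas1. GEO labels the groups Wild type (KP, replicates 5 to 8) and Epas1 -/- (KPH2, replicates 1 to 4). By the study's breeding scheme, the alleles other than Epas1 fl/fl are common to both groups.

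HIF-1 and HIF-2 are transcription factors made of an oxygen-regulated α subunit and the shared partner ARNT. In low oxygen the α subunit escapes hydroxylation and degradation, and the dimer binds short DNA elements with the core RCGTG near its target genes. Adm, Edn1 and Tgfa encode secreted or shed signals, Angptl4 encodes a secreted lipase inhibitor, Slc2a3 encodes a glucose transporter, and Ndrg1 and Ankrd37 encode intracellular proteins. Many of these genes can respond to either HIF.

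The promoters in which such cores could be read are shown because the genes were chosen as HIF targets. RefSeq sequences on GRCm38.p6 were at hand for 4 of the 7 genes, Adm (chr7:110627407-110627706, plus strand), Tgfa (chr6:86194972-86195271, plus strand), Edn1 (chr13:42301226-42301525, plus strand) and Ankrd37 (chr8:45999801-46000100, minus strand); Angptl4, Ndrg1 and Slc2a3 are named only. Each runs 5′ to 3′ on the gene's strand from 250 bases before to 50 bases after the annotated start, and capitals mark ACGTG or GCGTG on either strand.
Adm: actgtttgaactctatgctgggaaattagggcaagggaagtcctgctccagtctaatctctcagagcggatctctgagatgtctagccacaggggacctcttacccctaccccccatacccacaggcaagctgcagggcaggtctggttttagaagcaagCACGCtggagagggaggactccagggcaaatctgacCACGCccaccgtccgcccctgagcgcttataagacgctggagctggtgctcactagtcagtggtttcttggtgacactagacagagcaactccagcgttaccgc
Tgfa: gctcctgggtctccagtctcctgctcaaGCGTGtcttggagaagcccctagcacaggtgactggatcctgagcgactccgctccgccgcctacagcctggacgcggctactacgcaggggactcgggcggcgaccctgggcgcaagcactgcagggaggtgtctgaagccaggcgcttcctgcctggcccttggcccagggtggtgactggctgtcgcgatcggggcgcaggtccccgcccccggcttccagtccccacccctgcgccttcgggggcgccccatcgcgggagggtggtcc
Edn1: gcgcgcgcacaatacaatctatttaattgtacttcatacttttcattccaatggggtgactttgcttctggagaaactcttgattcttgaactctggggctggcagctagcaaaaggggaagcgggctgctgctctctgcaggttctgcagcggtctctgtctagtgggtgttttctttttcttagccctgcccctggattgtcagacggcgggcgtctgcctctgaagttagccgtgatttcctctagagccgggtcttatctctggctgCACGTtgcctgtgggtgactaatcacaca
Ankrd37: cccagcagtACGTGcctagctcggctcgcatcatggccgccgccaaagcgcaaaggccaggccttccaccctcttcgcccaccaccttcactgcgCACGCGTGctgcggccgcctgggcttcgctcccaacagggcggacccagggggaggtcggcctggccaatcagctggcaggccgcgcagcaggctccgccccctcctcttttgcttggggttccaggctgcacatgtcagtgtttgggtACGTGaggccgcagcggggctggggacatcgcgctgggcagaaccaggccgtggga
The Adm promoter held 2 matches, which began 90 and 54 bases before the start, and the Tgfa promoter held 1, which began 222 bases before it. The single Edn1 match lay 22 bases after the start. Ankrd37 had 4 matches, of which the 2 that began 155 and 152 bases before the start overlapped on opposite strands, while the other two began 241 and 6 bases before it. At least 1 match was present in 43.8% of all 32851 promoters in the table and at least 3 in 8.93%. Among 16372 genes with both counts and a promoter, the shares were 52.7% and 12.7%, taking each gene's promoter with most matches. Thus 1 or 2 matches are common letters in windows of this length. For Tgfa and Ankrd37 the RefSeq start lies inside the gene model used for the gene positions, so distances hold for that start. A match describes the letters only, and no binding was measured.

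The 8 libraries held 6463221 to 13155510 counted reads. Rn45s, the ribosomal RNA precursor, took 1.08 to 2.79% of them in KP and 3.58 to 9.83% in the 4 KPH2 libraries, without overlap, and its part in the results was not tested. Levels are given as counts per 1000000 counted reads (CPM) after scaling with edgeR's trimmed mean of M values (TMM). The study's methods leave out 1 HIF-2α knockout tumour as a technical outlier, although group sizes elsewhere in its text differ from this, and the authors' normalised table of 7 tumours lacks KPH2 replicate 1. That tumour is therefore set apart here, and each comparison is given for 7 tumours (KP n = 4, KPH2 n = 3) and, in the same paragraph, with KPH2 replicate 1 included. Summed over mesenchymal markers, all 10 of which were tested, the tumours had 18091 to 42824 CPM in KP and 21499 to 30590 CPM in KPH2 replicates 2 to 4. Of these markers 9 had a negative log2 fold change over 7 tumours and 1, Pdgfra, was lower at the adjusted threshold (-2.02, adjusted p = 0.0183), at 719 to 1491 CPM in KP, 223 to 273 CPM in KPH2 replicates 2 to 4 and 638 CPM in KPH2 replicate 1. Over 8 tumours 0 of the 10 passed (2 at an unadjusted p under 0.05). Of 8 epithelial markers, Krt1, Krt5 and Krt14 were at 0 in every tumour and Epcam reached at most 1.41 CPM. Krt10 differed little (log2 fold change 0.02 over 7 tumours), whereas Krt8 and Krt18 were higher in KPH2 over 7 tumours. Values of Krt8, Krt18 and Cdh1 are given beside Tgfa. Skeletal muscle markers summed to 1797 to 3277 CPM in KP, 4217 to 19077 CPM in KPH2 replicates 2 to 4 and 1477 CPM in KPH2 replicate 1. Endothelial markers summed to 414 to 763 CPM, 423 to 442 CPM and 317 CPM in the same order, and macrophage markers to 2612 to 4864, 1973 to 2904 and 2453 CPM. In such sections, fewer cells of a type and less RNA per cell cannot be told apart.

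The deleted gene was examined first. Epas1 (chromosome 17, 86753864 to 86833410, plus strand, GRCm38.p6) had 59.1, 83.0, 86.7 and 83.9 CPM in KP replicates 5 to 8, 53.3, 37.7 and 42.4 CPM in KPH2 replicates 2 to 4, and 32.6 CPM in KPH2 replicate 1. All 4 KPH2 tumours lay below all 4 KP tumours. The edgeR log2 fold change, KPH2 against KP, was -0.81 (SE 0.19, adjusted p = 0.0742) over 7 tumours and -0.91 (adjusted p = 0.117) over 8. The counts cover the whole gene, including parts that Cre does not remove, so they are no direct check of the deletion. The paper reports efficient recombination of Epas1 in KPH2 tumours by PCR.

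None of the 7 genes passed an adjusted p of 0.05 in the edgeR quasi-likelihood test, in either set of tumours. Over 7 tumours 1.96% of the 14867 genes tested were called, 1.24% higher and 0.72% lower in KPH2, and over 8 tumours 0.00675% of 14805. At an unadjusted p under 0.05, 1 of the 7 genes (Tgfa) passed over 7 tumours, where 17.8% of all genes did, and 2 (Tgfa and Edn1) passed over 8, where 14.7% did. Their log2 fold changes ran from -0.88 to 2.26 with a median of -0.01, beside -0.02 over all genes tested, and 3 were positive, beside 48% of all genes. Over 8 tumours 2 were positive, beside 50.9%. Groups did not overlap for 1 of the 7 genes (Tgfa, higher in KPH2) over 7 tumours, beside 16.9% of all genes (8.73% higher, 8.15% lower), and for 0 of 7 over 8 tumours, beside 8.16% (3.76% higher, 4.4% lower). With other tools over 7 tumours, DESeq2 called 1 of the 7 (Tgfa), beside 7.2% of all genes, and limma on the authors' log2 values called 0, beside 1.44%. The same shares are the background for the gene lists described further on.

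**Figure D1:**
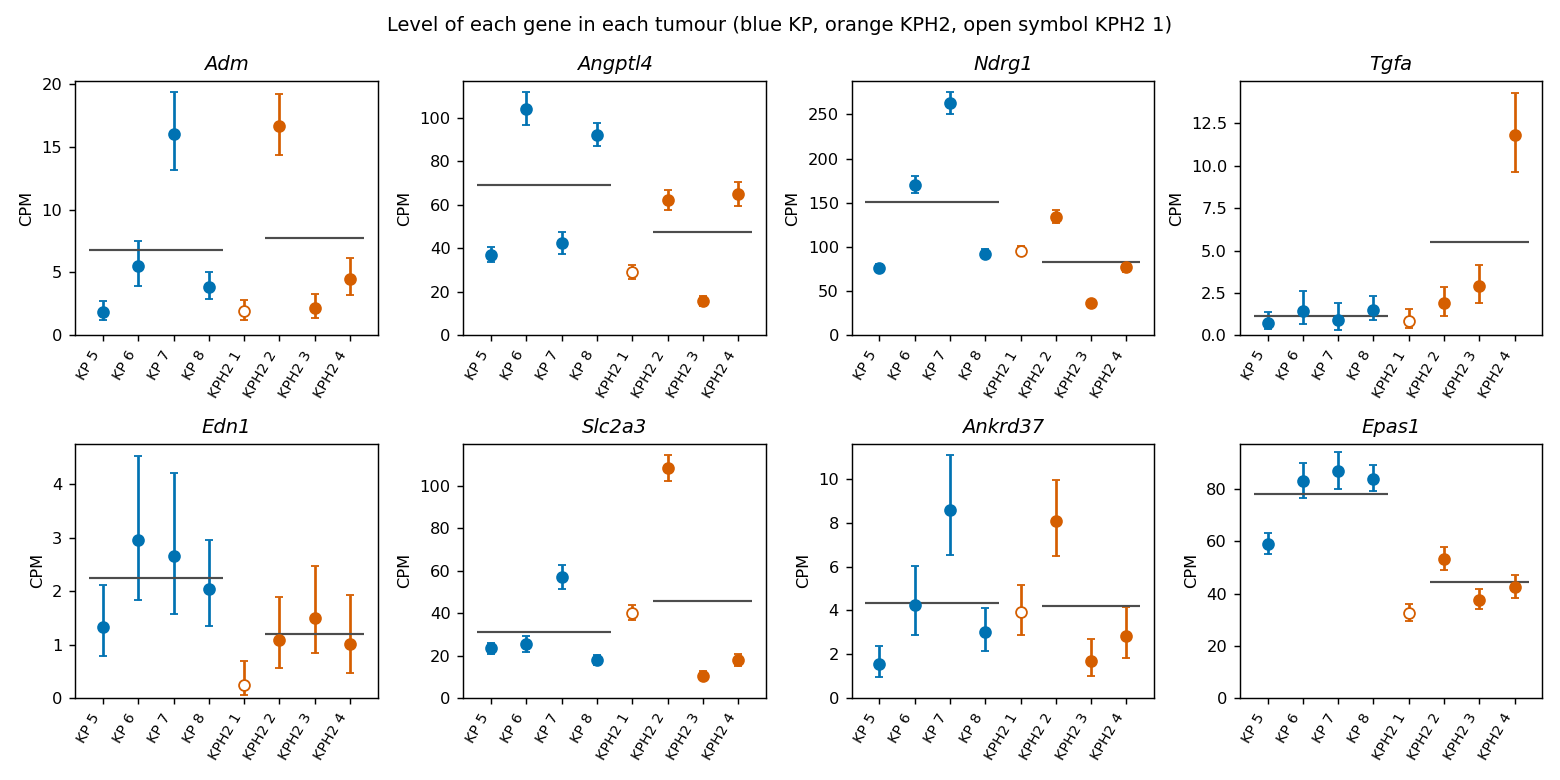
CPM (linear axes from 0) of each of the 7 genes and of Epas1 in each tumour; blue points are KP, orange points KPH2 and the open point KPH2 replicate 1. Error bars are 95% Poisson counting intervals and horizontal lines the means of KP and of KPH2 replicates 2 to 4. Of the 7 genes only Tgfa has groups that do not overlap over 7 tumours: KPH2 replicates 2 to 4 (1.89 to 11.8 CPM) lie above KP (0.741 to 1.51 CPM) and KPH2 replicate 1 (0.878 CPM) lies among the KP tumours.

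Adm encodes adrenomedullin, a secreted peptide that widens blood vessels and acts through the receptor CALCRL with RAMP2 or RAMP3. The gene lies on chromosome 7, 110627657 to 110629820 (plus strand). Adm had 1.85, 5.51, 16.0 and 3.84 CPM in KP replicates 5 to 8, 16.6, 2.20 and 4.50 CPM in KPH2 replicates 2 to 4, and 1.92 CPM in KPH2 replicate 1. KP replicate 7 and KPH2 replicate 2 were both high, and the low tumours belonged to both genotypes. The means were 6.80 ± 6.31 CPM in KP (SD, n = 4) and 7.77 ± 7.75 CPM in KPH2 (SD, n = 3), so the tumours of 1 genotype differed from each other more than the means did. The log2 fold change was 0.23 (SE 0.84, 95% interval -1.71 to 2.17, adjusted p = 0.923) and -0.08 (adjusted p = 0.977) over 8 tumours. Without KPH2 replicate 2 it was -0.998, and without KP replicate 7 it was 1.08. In a fit that included the skeletal muscle score it was 1.94 (SE 2.05, adjusted p = 0.919). That score did not overlap between genotypes over 7 tumours, so the fit separates muscle from genotype poorly. The exact permutation test over 7 tumours gave p = 0.857.

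Edn1 encodes the precursor of endothelin-1, a peptide that constricts blood vessels through the receptors EDNRA and EDNRB. It lies on chromosome 13, 42301476 to 42307990 (plus strand). Edn1 had 1.33, 2.97, 2.66 and 2.03 CPM in KP replicates 5 to 8, 1.08, 1.498 and 1.01 CPM in KPH2 replicates 2 to 4, and 0.239 CPM in KPH2 replicate 1. These levels rest on 3 to 27 reads per tumour. KPH2 tumours were mostly below KP, but KPH2 replicate 3 exceeded KP replicate 5. The means were 2.25 ± 0.723 CPM in KP (SD, n = 4) and 1.196 ± 0.263 CPM in KPH2 (SD, n = 3). The log2 fold change was -0.88 (SE 0.40, 95% interval -1.79 to 0.03, unadjusted p = 0.0561, adjusted p = 0.297 by edgeR), and with KPH2 replicate 1 it was -1.22 (SE 0.51, unadjusted p = 0.0403, adjusted p = 0.316). The exact permutation p was 0.0857 over 7 tumours and 0.0571 over 8. The log2 fold change of Edn1 was also negative in each of the 22 alternative fits that tested it, and none called it. Of 12 endothelial markers, whose summed levels are given above, 10 had a negative log2 fold change over 7 tumours and 0 passed the adjusted test (6 at an unadjusted p under 0.05; over 8 tumours 11, 0 and 8), and their part in the Edn1 values was not tested.

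Tgfa encodes transforming growth factor α, a membrane-anchored ligand that is shed by ADAM17 and binds the EGF receptor. It lies on chromosome 6, 86195038 to 86275744 (plus strand). Tgfa had 0.741, 1.41, 0.888 and 1.51 CPM in KP replicates 5 to 8, 1.89, 2.90 and 11.8 CPM in KPH2 replicates 2 to 4, and 0.878 CPM in KPH2 replicate 1. The reads behind these levels were 10, 10, 6 and 20 in KP, 21, 29 and 105 in KPH2 replicates 2 to 4 and 11 in KPH2 replicate 1. KPH2 replicate 4 stood well above the rest, and KPH2 replicate 1 was no higher than KP. The means were 1.14 ± 0.379 CPM in KP (SD, n = 4) and 5.53 ± 5.46 CPM in KPH2 (SD, n = 3).

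Over 7 tumours the Tgfa log2 fold change was 2.26 (SE 0.65, 95% interval 0.77 to 3.76, unadjusted p = 0.00796), and the adjusted p of edgeR was 0.124. The exact permutation test gave p = 0.029, the smallest that 35 splits allow. With KPH2 replicate 1 the log2 fold change was 1.92 (adjusted p = 0.3) and the exact permutation p was 0.143. Without KPH2 replicate 4 the log2 fold change by edgeR was 1.06 (adjusted p = 0.39), or 0.72 (adjusted p = 0.612) when KPH2 replicate 1 was included. In a fit that included the skeletal muscle score it was 3.53 (SE 0.67, unadjusted p = 0.000886, adjusted p = 0.225). With limma on the authors' log2 values over 7 tumours it was 0.76 (adjusted p = 0.285). DESeq2 called Tgfa over 7 tumours (log2 fold change 2.28, adjusted p = 0.0165), in a fit that called 7.2% of all genes, and did not over 8 (1.94, adjusted p = 0.129). Epithelial markers summed to 6.51 to 10.7 CPM in KP, 52.6 to 525 CPM in KPH2 replicates 2 to 4 and 60.6 CPM in KPH2 replicate 1. Of the 4 epithelial markers tested, Krt8 and Krt18 passed the adjusted edgeR test over 7 tumours (log2 fold changes 7.27 and 5.73, adjusted p = 0.0299 and 0.0183), and 0 passed it over 8. Krt8 had 0.706 to 2.001 CPM in KP, 262, 6.89 and 282 CPM in KPH2 replicates 2 to 4 and 1.44 CPM in KPH2 replicate 1. Krt18 had 0.444 to 4.52 CPM in KP, 201, 40.8 and 228 CPM in KPH2 replicates 2 to 4 and 56.1 CPM in KPH2 replicate 1. The part of epithelial marker expression in the Tgfa levels was not tested.

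Angptl4 encodes angiopoietin-like 4, a secreted protein that inhibits lipoprotein lipase. It lies on chromosome 17, 33774900 to 33781575 (minus strand). Angptl4 had 37.1, 104, 42.3 and 92.1 CPM in KP replicates 5 to 8, 62.1, 15.7 and 64.8 CPM in KPH2 replicates 2 to 4, and 29.0 CPM in KPH2 replicate 1. KPH2 replicate 3 was the lowest tumour and KP replicates 6 and 8 the highest, with the other tumours of both genotypes between them. The means were 68.9 ± 34.1 CPM in KP (SD, n = 4) and 47.5 ± 27.6 CPM in KPH2 (SD, n = 3). KPH2 against KP, Angptl4 had a log2 fold change of -0.54 (SE 0.55, 95% interval -1.80 to 0.72, adjusted p = 0.666) over 7 tumours and -0.68 (SE 0.50, adjusted p = 0.565) over 8. The difference was smaller than the spread between tumours, with an exact permutation p of 0.429. A fit that included the skeletal muscle score gave Angptl4 a log2 fold change of 0.36 (SE 0.88).

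Slc2a3 encodes GLUT3, a glucose transporter of high affinity. It lies on chromosome 6, 122727809 to 122802363 (minus strand). Slc2a3 had 23.5, 25.4, 57.0 and 18.0 CPM in KP replicates 5 to 8, 108.4, 10.6 and 17.9 CPM in KPH2 replicates 2 to 4, and 40.1 CPM in KPH2 replicate 1. KPH2 thus held both the highest and the lowest tumour of the 8. The means were 30.98 ± 17.6 CPM in KP (SD, n = 4) and 45.6 ± 54.5 CPM in KPH2 (SD, n = 3). For KPH2 against KP, edgeR gave a log2 fold change of 0.57 (SE 0.77, 95% interval -1.201 to 2.34, adjusted p = 0.758) and 0.52 (adjusted p = 0.771) over 8 tumours, but -1.12 without KPH2 replicate 2. The difference of mean log2 CPM over 7 tumours was -0.03, of the other sign, and the exact permutation p was 0.971.

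Ndrg1 encodes N-myc downstream regulated 1, an intracellular protein widely used as a marker of hypoxia. It lies on chromosome 15, 66929318 to 66969641 (minus strand). Ndrg1 had 76.1, 170, 263 and 92.3 CPM in KP replicates 5 to 8, 134.4, 36.4 and 77.3 CPM in KPH2 replicates 2 to 4, and 96.0 CPM in KPH2 replicate 1. Its highest tumours, KP replicates 7 and 6, were both KP, and KPH2 replicate 3 was the lowest, but the groups overlapped between 76.1 and 134.4 CPM. The means were 150.4 ± 85.6 CPM in KP (SD, n = 4) and 82.7 ± 49.3 CPM in KPH2 (SD, n = 3). Its log2 fold change was -0.86 (SE 0.54, 95% interval -2.11 to 0.38, adjusted p = 0.461) over 7 tumours and -0.80 (SE 0.47, adjusted p = 0.467) over 8. The exact permutation test gave p = 0.286. A fit that included the skeletal muscle score gave Ndrg1 a log2 fold change of 0.51 (SE 1.02).

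Ankrd37 encodes a small protein with ankyrin repeats that is commonly used in hypoxia signatures. It lies on chromosome 8, 45996908 to 46000414 (minus strand). Ankrd37 had 1.56, 4.24, 8.59 and 3.01 CPM in KP replicates 5 to 8, 8.09, 1.70 and 2.81 CPM in KPH2 replicates 2 to 4, and 3.91 CPM in KPH2 replicate 1. Each genotype had 1 tumour above 8 CPM and 1 below 2 CPM. The means were 4.35 ± 3.03 CPM in KP (SD, n = 4) and 4.20 ± 3.41 CPM in KPH2 (SD, n = 3). Its log2 fold change was -0.01 (SE 0.68, 95% interval -1.58 to 1.55, adjusted p = 0.994) over 7 tumours and -0.05 (adjusted p = 0.983) over 8. In a fit that included the skeletal muscle score it was 1.15. Without KP replicate 7 it was 0.54, and without KPH2 replicate 2 it was -0.92. Ankrd37 overlaps Ufsp2 and Lrp2bp on the opposite strand, and Ndrg1 overlaps Gm2895, so reads of these genes may be mixed if the counting did not use strand.

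**Figure D2:**
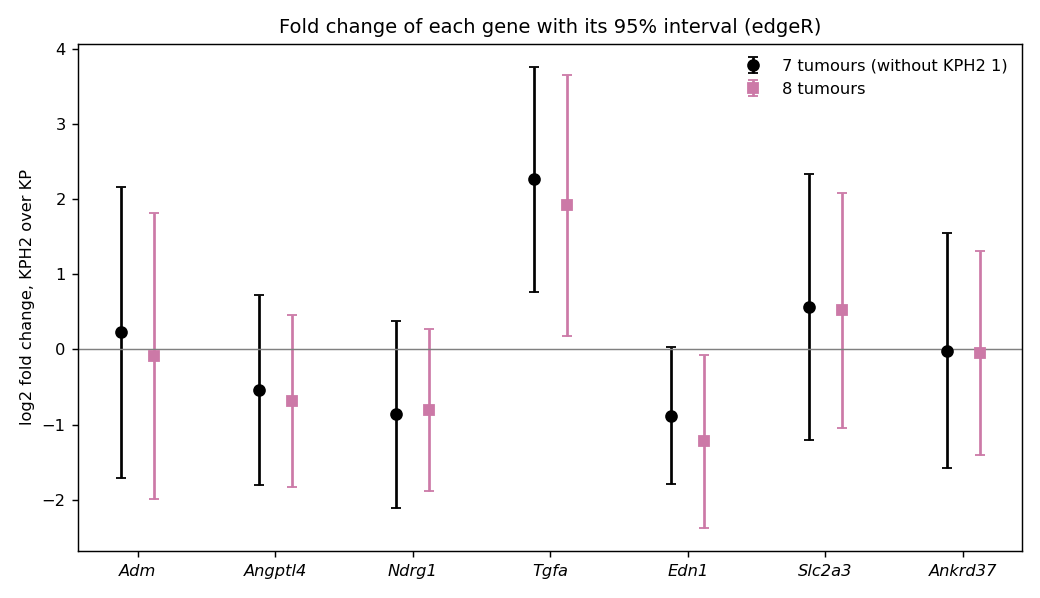
Log2 fold change of each gene, KPH2 against KP, with its unadjusted 95% interval over 7 tumours (circles) and over all 8 (squares). Over 7 tumours the interval lies off 0 for Tgfa alone (0.77 to 3.76) and over 8 for Tgfa and Edn1, and those of Adm, Slc2a3 and Ankrd37 over 7 tumours extend past 1 on both sides of 0.

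Corrected for exon length, the 7 genes covered a wide range of levels. The median over the 8 tumours was 32.6 CPM per kilobase for Ndrg1, 15.8 for Angptl4, 6.18 for Slc2a3, 3.73 for Ankrd37, 3.0006 for Adm, 0.662 for Edn1 and 0.322 for Tgfa. The ranges over the 8 tumours overlapped between each pair of neighbours in this order. The genes varied between tumours more than most: the SD of log2 CPM over the 8 tumours was 0.86 for Ndrg1 and 1.22 for Adm, the lowest and the highest of the 7, at the 87.7 and 94.8 percentile of all genes tested.

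The spread had a common order across several of the genes. KP replicate 7 and KPH2 replicate 2 held the 2 highest levels of Adm, Slc2a3 and Ankrd37, 3 of the 7 genes (42.9%). The same pair was highest in 16 of 31 other hypoxia-inducible genes (51.6%) and in 2.57% of all genes tested. Both tumours lay above KP replicate 5 and KPH2 replicate 3 in 5 of the 7 genes (71.4%), in 23 of the 31 (74.2%) and in 15.1% of all genes. Tgfa and Edn1 did not follow this order. The 4 tumours were picked after their values were seen, so these shares are a description. The mean log2 CPM of the 31 genes was 6.58 in KP replicate 7 and 6.53 in KPH2 replicate 2, against 5.37 in KP replicate 5 and 5.52 in KPH2 replicate 3. The tumours with high hypoxia-inducible genes thus included 1 of each genotype.

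**Figure D3:**
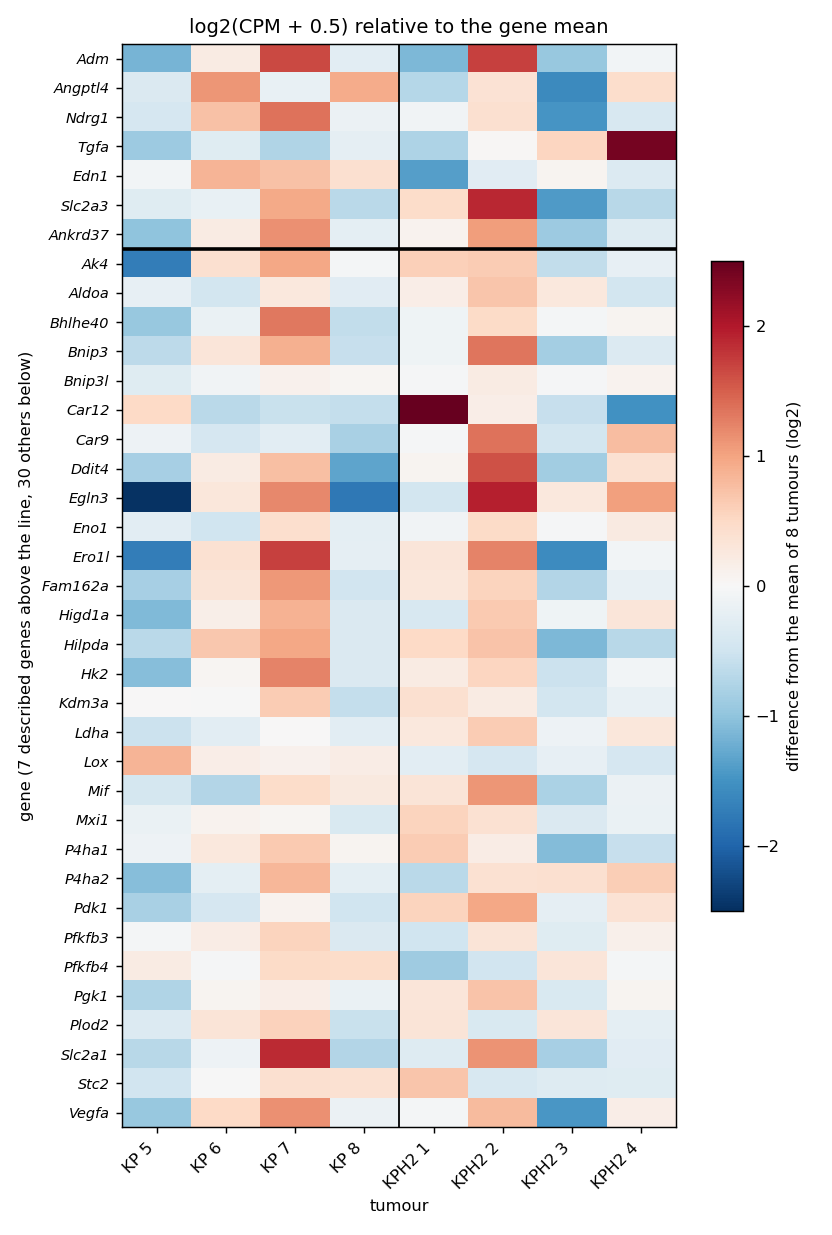
Colour map with 1 row for each of the 7 genes (above the line) and for 30 of the 31 other hypoxia-inducible genes and 1 column for each tumour; red is above and blue below the gene's mean of log2(CPM + 0.5) over the 8 tumours. KP replicate 7 and KPH2 replicate 2 are red for Adm, Slc2a3 and Ankrd37, and Tgfa is darkest in KPH2 replicate 4.

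Likeness of pattern was measured as the mean absolute difference between log2 CPM profiles, each centred on its mean over the 8 tumours, so that smaller values mean closer profiles. Among the 7 genes, the closest pairs were Ndrg1 with Ankrd37 and Adm with Ankrd37, both at 0.37, and the farthest was Tgfa with Slc2a3 at 1.47. Out of 7784 candidate genes, the nearest to Adm was Vdr (0.25), the vitamin D receptor, followed by Ankrd37 (0.37). Hk2 (0.22), a hexokinase, and Bnip3 (0.23), a mitochondrial mitophagy receptor, were nearest to Ankrd37, and Arntl2 (0.30) and Bnip3 (0.39) to Slc2a3. Ndrg1 was closest to Gpihbp1 (0.23), which anchors lipoprotein lipase to capillary walls, and Gja1 (0.24), a gap junction protein. Angptl4 was closest to Ednrb (0.27) and Cytip (0.28), Edn1 to Adora2a (0.19) and Lbp (0.26), and Tgfa to Padi2 (0.27) and Tmem171 (0.36). With 8 tumours many genes have near profiles, and these neighbours are a description.

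The receptors and processing enzymes of the 2 vasoactive peptides were then examined. Of 11 genes tested in the adrenomedullin and endothelin system, 1 was higher in KPH2 at an adjusted p under 0.05 over 7 tumours and 0 were lower, with 2 and 1 at an unadjusted p under 0.05 (17.8% of all genes) and a median log2 fold change of -0.47. DESeq2, which called 7.2% of all genes, called 2, Mme and Calcb, and limma on the authors' log2 values 0; Calcb was named after its values were seen. Over 8 tumours 10 genes were tested, 0 passed the adjusted edgeR test, 1 was higher at an unadjusted p under 0.05 and the median was -0.33. The gene called by edgeR was Mme, which encodes neprilysin, a membrane peptidase that degrades small peptides including endothelin. Mme had 8.60, 25.4, 12.3 and 20.2 CPM in KP replicates 5 to 8, 432.5, 63.5 and 163.8 CPM in KPH2 replicates 2 to 4 and 13.5 CPM in KPH2 replicate 1. KPH2 replicates 2 to 4 exceeded every KP tumour, while KPH2 replicate 1 lay among them. The log2 fold change of Mme was 3.73 (SE 0.65, adjusted p = 0.0355) over 7 tumours and 3.34 (adjusted p = 0.184) with KPH2 replicate 1. DESeq2 over all 8 tumours called it (3.35, adjusted p = 0.017). Leaving out each of the 7 tumours in turn gave a log2 fold change of 2.78 to 4.17 and an adjusted p of 0.0204 (without KPH2 replicate 3) to 0.0891 (without KP replicate 7), and the call was lost in each of these fits but the first. It was also lost without the filter on low counts (3.74, adjusted p = 0.0761) and in a fit that included the skeletal muscle score (4.06, adjusted p = 0.426).

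The receptor genes did not pass the test. Calcrl, the adrenomedullin receptor, averaged 91.0 ± 39.4 CPM in KP and 65.5 ± 25.4 CPM in KPH2 replicates 2 to 4 (SD; log2 fold change -0.47, adjusted p = 0.628). Its partner Ramp2 averaged 8.88 ± 0.825 and 6.22 ± 1.52 CPM (-0.51, adjusted p = 0.312). The largest negative value was that of Ramp3 (-1.71, adjusted p = 0.239), which was -0.19 with KPH2 replicate 1, where Ramp3 reached 23.4 CPM. The endothelin receptors Ednra and Ednrb had log2 fold changes of 0.25 (adjusted p = 0.8) and -0.60 (adjusted p = 0.624), and Ece1, the enzyme that cuts the endothelin precursor, had -0.48 (adjusted p = 0.481). Over 8 tumours the values were -0.53 for Calcrl, -0.47 for Ramp2, 0.25 for Ednra, -0.70 for Ednrb and -0.56 for Ece1.

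Of 13 EGF-family ligands, receptors and sheddases tested, 0 passed the adjusted edgeR test and 1 an unadjusted p under 0.05, with a median log2 fold change of 0.12. DESeq2 and limma each called 1, Erbb3. Over 8 tumours 0 passed the adjusted edgeR test, 2 were higher at an unadjusted p under 0.05 and the median was 0.03. Egfr, the receptor of TGFα, averaged 172.7 ± 68.6 CPM in KP and 98.6 ± 50.4 CPM in KPH2 replicates 2 to 4 (SD; log2 fold change -0.81, SE 0.40, adjusted p = 0.34). KPH2 replicate 1 had 184.6 CPM of Egfr, above the KP mean, and with it the log2 fold change was -0.52 (adjusted p = 0.58). Adam17, its sheddase, averaged 158.5 ± 5.98 and 152.8 ± 10.6 CPM (log2 fold change -0.05, SE 0.12, adjusted p = 0.868). The largest positive value was that of the receptor Erbb3 (2.26, adjusted p = 0.0523), at 2.99 ± 2.02 CPM in KP, 14.2 ± 4.10 CPM in KPH2 replicates 2 to 4 and 1.52 CPM in KPH2 replicate 1, and the largest negative that of the ligand Ereg (-0.91, adjusted p = 0.316). Over 8 tumours the values were 1.89 for Erbb3 (adjusted p = 0.279), -0.63 for Ereg and -0.04 for Adam17. Erbb3 and Mme were high in KPH2 replicates 2 to 4 and not in KPH2 replicate 1. Tgfa was clearly high only in KPH2 replicate 4 (11.8 CPM). Its Poisson counting interval in KP replicate 8 was 0.920 to 2.33 CPM. Those in KPH2 replicate 2 (1.17 to 2.88 CPM) and KPH2 replicate 3 (1.94 to 4.16 CPM) overlapped it. The split of Erbb3 and Mme was also seen in the summed skeletal muscle markers (4217 to 19077 against 1477 CPM) and in Krt8 (6.89 to 282 against 1.44 CPM). It was not seen in Krt18 (40.8 to 228 against 56.1 CPM) or in the summed epithelial markers (52.6 to 525 against 60.6 CPM). Fits that included the muscle score are given beside Tgfa and Mme, and the part of the epithelial markers was not tested.

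Of 10 angiopoietin-like proteins and lipoprotein lipase partners tested, 0 passed the adjusted test and 3 had an unadjusted p under 0.05, all lower, with a median log2 fold change of -0.63. DESeq2 called 2, both lower, Angptl7 and Lipg (named after its values were seen), and limma 0. Over 8 tumours 0 passed the adjusted edgeR test, 1 was lower at an unadjusted p under 0.05 and the median was -0.35. Lpl, the enzyme that Angptl4 inhibits, had the largest positive value (0.36, adjusted p = 0.714), and Gpihbp1 had -0.70 (adjusted p = 0.49); over 8 tumours they had 0.07 and -0.73, and KPH2 replicate 1 had 6.38 CPM of Lpl against 17.5 ± 7.16 CPM in KP (SD, n = 4). Angptl7, a secreted paralog, had the largest negative value (-3.86, SE 0.82, adjusted p = 0.0607). It averaged 122 ± 117 CPM in KP and 8.39 ± 1.504 CPM in KPH2 replicates 2 to 4 (SD), with 133 CPM in KPH2 replicate 1, and the log2 fold change over 8 tumours was -1.62 (adjusted p = 0.531). KPH2 replicate 1 was again at the KP level.

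Of 12 NDRG and GLUT paralogs tested, 0 passed the adjusted test, and 1 higher and 3 lower had an unadjusted p under 0.05, beside 17.8% of all genes. DESeq2 (7.2% of all genes) called Ndrg2 higher and Slc2a10 lower, and limma 0. Slc2a1, the more widely expressed glucose transporter GLUT1, averaged 104.9 ± 107 CPM in KP and 85.9 ± 62.8 CPM in KPH2 (SD; log2 fold change -0.28, adjusted p = 0.887). Ndrg2 had the largest positive log2 fold change (1.32, adjusted p = 0.131) and Slc2a10 the largest negative (-1.21, adjusted p = 0.117). Over 8 tumours the values were -0.40 for Slc2a1, 1.19 for Ndrg2 and -1.46 for Slc2a10, 0 of the 12 passed the adjusted test, and 1 higher and 2 lower had an unadjusted p under 0.05. All 20 skeletal muscle markers had a positive log2 fold change over 7 tumours (19 at an unadjusted p under 0.05, 2 past the adjusted test), also over 8 tumours (12 and 0), and their part in these values was not tested.

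Among 10 HIF subunits and hydroxylases tested, 0 passed the adjusted test and 1, Epas1, had an unadjusted p under 0.05; DESeq2 called Epas1 lower, and limma 0. Hif1a, the α subunit that shares many targets with HIF-2α, averaged 401.8 ± 133.4 CPM in KP and 333.9 ± 78.1 CPM in KPH2 replicates 2 to 4 (SD; log2 fold change -0.27, adjusted p = 0.705). Hif3a, which encodes a further α subunit, had the largest positive value (1.66, adjusted p = 0.365). Of the 31 other hypoxia-inducible genes 0 passed the adjusted test, 3 were higher and 1 lower at an unadjusted p under 0.05, and the median log2 fold change was -0.04. DESeq2 called 1, Lox, lower, and limma 0. Egln3, an oxygen-sensing hydroxylase that is itself induced in hypoxia, had the largest positive value (1.27, adjusted p = 0.482), and Lox, a collagen cross-linking enzyme, the largest negative (-0.71, adjusted p = 0.136). Vegfa, the angiogenic growth factor, had -0.23 (SE 0.59, adjusted p = 0.887). Over 8 tumours the values were -0.33 for Hif1a, 1.30 for Hif3a, 0.99 for Egln3, -0.69 for Lox and -0.27 for Vegfa, and 0 of either list passed the adjusted test, with 1 of the 10 and 4 of the 31 at an unadjusted p under 0.05. The median of the 31 was then 0.03.

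**Figure D4:**
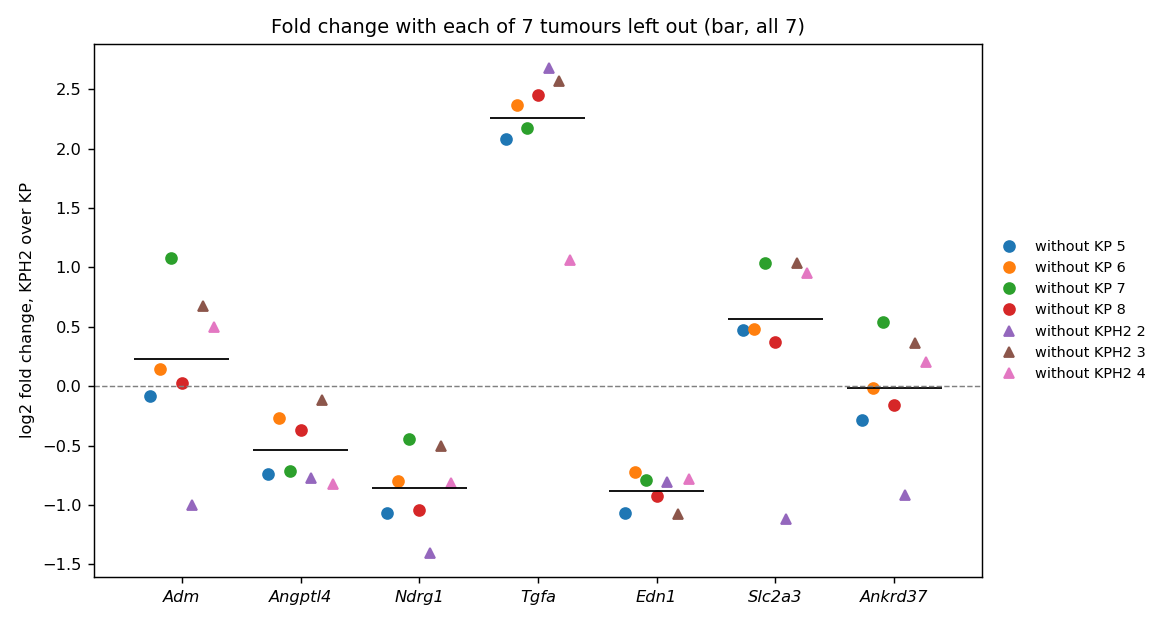
Log2 fold change of each of the 7 genes (KPH2 against KP, edgeR) over 7 tumours (bar) and with each tumour left out in turn (circles KP, triangles KPH2). The sign changes for Adm, Slc2a3 and Ankrd37 when some tumours are left out, and does not for Angptl4, Ndrg1, Tgfa and Edn1; Tgfa falls to 1.06 without KPH2 replicate 4.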

How the data were processed

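RNA from formalin-fixed, paraffin-embedded sections of 8 mouse tumours (4 KP, 4 KPH2) was sequenced after ribosomal RNA removal with a strand-marking kit. According to the study's methods, the authors aligned the reads with STAR 2.4 to GRCm38 and counted unique alignments per RefSeq transcript with htseq-count 0.6.1; the strand setting is not given in the sources used here. The deposited raw counts were the main input, and the deposited log2 values, regularised by the authors with DESeq2 1.6, served an alternative. The labels do not say that the tumours came from separate mice, so p-values measure the spread between these samples.

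Counts were tested with edgeR 4.0.16 in R 4.3.3 (TMM, filterByExpr with a minimum count of 10 and total of 15, robust quasi-likelihood test, Benjamini-Hochberg adjustment over all genes tested, threshold 0.05), over the 7 tumours of the authors' table and over all 8. CPM used TMM library sizes of the 8 tumours, and log2 CPM a prior count of 2. Exact permutation tests were 2-sided, over 35 or 70 splits, with a smallest p of 0.029 in either. DESeq2 1.42.0 and limma 3.58.1 were alternatives. On simulated counts for the 7 tumours over 15388 genes, edgeR recovered 186 of 200 genes changed by a log2 fold of 2 and called 12 unchanged ones. The simulation gave every gene the same dispersion. The 7 genes varied between tumours more than most, so this recovery does not describe them. No 2 libraries agreed within sampling noise. Exon lengths came from GENCODE models matched to RefSeq on GRCm38.p6, and promoters from RefSeq. Totals of 6463221 to 13155510 reads limit the precision of genes below about 3 CPM, and counting error is part of their spread.

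Named were the 7 genes, Epas1, from each pathway list the genes past the threshold and those with the largest positive and negative log2 fold change over 7 tumours, a fixed set of direct partners (Calcrl, Ramp2, Ednra, Ednrb, Ece1, Egfr, Adam17, Lpl, Gpihbp1, Slc2a1, Hif1a and Vegfa; 1 further partner is not reported here), and the 2 nearest genes by profile, with an SD of log2 CPM of at least 0.3 and no Gm or Rik symbol. The genes and lists were chosen with earlier results of these data known. Alternatives changed the scaling, the filter, the tumours, the covariates and the tool.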

Additional observations from a re-analysis of the deposited data

How the results depend on the processing

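No paired analysis was possible because the labels do not match KP tumours to KPH2 tumours. The log2 fold changes of Edn1 and Tgfa kept their sign in all 22 alternative fits that tested them. Tgfa was called by DESeq2 without a prior (2.28) and with a normal prior (1.58) over 7 tumours, which made 1 gene of the 7 called in each of these fits, and by no other fit; the cause was not tested. Leaving out 1 tumour of the 7, log2 fold changes ran from -0.998 to 1.08 for Adm, -0.82 to -0.12 for Angptl4, -1.40 to -0.45 for Ndrg1, 1.06 to 2.68 for Tgfa, -1.07 to -0.72 for Edn1, -1.12 to 1.04 for Slc2a3 and -0.92 to 0.54 for Ankrd37, and 0 to 2 genes had an unadjusted p under 0.05.

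Adm turned negative over all 8 tumours (-0.083), without KP replicate 5 or KPH2 replicate 2, with DESeq2 (-0.090) and limma on the authors' log2 values (-0.15) over 8 tumours, and over 8 tumours without KPH2 replicate 2 (-1.23). Slc2a3 turned negative without KPH2 replicate 2 (-1.12, or -0.43 when KPH2 replicate 1 was included). Ankrd37 turned positive without KP replicate 7 (0.54) or KPH2 replicate 3 or 4, without a filter on low counts (0.0019), and over 8 tumours without KPH2 replicate 3 (0.21) or 4 (0.10). With the skeletal muscle score as a covariate Angptl4 (0.36), Ndrg1 (0.51) and Ankrd37 (1.15) turned positive. The value of Adm went from 0.23 to 1.94, Tgfa from 2.26 to 3.53 and Slc2a3 from 0.57 to 0.90, and Edn1 was -0.70. None of them was called, and the cause was not tested. Over 7 tumours the score (mean log2 CPM) did not overlap between genotypes, at 4.21 to 5.40 in KP and 5.57 to 7.95 in KPH2. Such a fit separates muscle from genotype poorly. The SE went from 0.84 to 2.05 for Adm, 0.54 to 1.02 for Ndrg1 and 0.55 to 0.88 for Angptl4. For Edn1 it went from 0.40 to 0.78 and for Tgfa from 0.65 to 0.67. The count of genes with an unadjusted p under 0.05 was 2 over 8 tumours by edgeR and by DESeq2 and over 8 without KPH2 replicate 3, and 0 with a mean count of at least 50, where only 4 of the 7 genes were tested, and over 8 tumours without KPH2 replicate 4.

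The difference of mean log2 CPM over 8 tumours turned negative for Adm (-0.23) and positive for Slc2a3 (0.11). Leaving out 1 tumour, it ran through 0 for Adm (-0.65 to 0.76), Angptl4 (-0.99 to 0.026), Slc2a3 (-1.01 to 0.65) and Ankrd37 (-0.69 to 0.38); for Tgfa (0.98 to 2.24) it stayed positive, but with 1 tumour left out the exact permutation p could not reach 0.05. Levels of Edn1 and Tgfa rest on 3 to 105 reads per tumour, so small differences between tumours were not detectable at this depth. Over all genes, calls numbered 292 over 7 tumours by edgeR, 55 to 349 with 1 tumour left out, 1 over 8 tumours, 3 with the muscle covariate and 1175 by DESeq2 without a prior.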
